A study of Mus musculus with 6 samples.

Results

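The genes of the Trithorax-group complexes that methylate lysine 4 of histone H3 (H3K4) were followed in mouse embryonic stem cells with lowered Pcl2. The 10 genes are the methyltransferases Kmt2a, Kmt2b, Kmt2c, Kmt2d, Setd1a and Setd1b and the core subunits Rbbp5, Ash2l, Wdr5 and Dpy30, out of 18193 genes named on the array. They were taken by name, through the probe sets whose platform annotation gives exactly 1 gene, and 19 probe sets met that rule. None of these 19 was taken in by its values, though the brightest probe set of each gene stood for it in the main test. Undifferentiated cells of the R1 line, grown with leukaemia inhibitory factor, were measured on 6 Affymetrix expression arrays. A stably expressed hairpin (shRNA) targeted Pcl2 (gene symbol Mtf2) in 3 of the samples, and the other 3 carried a mismatch control hairpin. The Pcl2 shRNA cells were 1 clone, so effects of the hairpin and of that clone cannot be told apart. The origin of the 3 samples within a group is given only as biological replicates, and a p-value here speaks for the spread among those arrays, which may be technical.

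Each methyltransferase works in a complex of the COMPASS type, in which a catalytic SET-domain protein is held by a module of WDR5, RBBP5, ASH2L and DPY30 that all 6 complexes share. In mammals SETD1A and SETD1B write much of the trimethyl mark at active promoters, KMT2A and KMT2B act at particular promoters that include Hox and other developmental genes, and KMT2C and KMT2D place the monomethyl mark at enhancers. The Trithorax group takes its name from fly genes that keep homeotic genes on and oppose the Polycomb group, to which Pcl2 belongs through Polycomb repressive complex 2. In embryonic stem cells many developmental promoters carry both the H3K4 mark and the H3K27 mark of that complex.

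Kmt2c and Rbbp5 are the members that rose, as given below, and the 250 bases before their annotated starts are shown beside those of Kmt2d, the closest relative of Kmt2c, which did not pass the test. KMT2A, KMT2B and CXXC1, a subunit of the SETD1 complexes, bind unmethylated CG dinucleotides through CXXC domains, so CG, which reads the same on both strands, is in capitals. The sequences are from RefSeq, build GRCm38.p6, each written along its gene's own strand.
Kmt2c, chr5:25498784-25499033, minus strand: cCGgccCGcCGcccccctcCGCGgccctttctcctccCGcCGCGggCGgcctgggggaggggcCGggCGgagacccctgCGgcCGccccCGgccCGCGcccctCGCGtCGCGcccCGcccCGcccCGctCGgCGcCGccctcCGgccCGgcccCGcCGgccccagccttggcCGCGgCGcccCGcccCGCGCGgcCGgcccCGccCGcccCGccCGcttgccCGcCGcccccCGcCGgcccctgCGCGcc
Rbbp5, chr1:132477117-132477366, plus strand: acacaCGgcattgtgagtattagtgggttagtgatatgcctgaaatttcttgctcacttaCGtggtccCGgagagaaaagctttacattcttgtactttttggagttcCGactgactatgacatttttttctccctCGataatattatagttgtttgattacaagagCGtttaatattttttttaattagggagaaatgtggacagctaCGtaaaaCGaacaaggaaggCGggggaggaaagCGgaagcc
Kmt2d, chr15:98871206-98871455, minus strand: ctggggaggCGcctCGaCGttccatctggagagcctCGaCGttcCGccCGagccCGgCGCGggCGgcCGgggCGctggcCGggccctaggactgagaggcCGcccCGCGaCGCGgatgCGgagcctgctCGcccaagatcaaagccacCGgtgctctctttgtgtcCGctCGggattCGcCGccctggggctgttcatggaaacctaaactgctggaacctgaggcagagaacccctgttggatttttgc
The Kmt2c window held 48 CG dinucleotides, a number reached by 0.186% of 32851 promoter windows of the same length, and it was 91.6% G and C. The Kmt2d window held 26, reached by 9.59% of windows. The Rbbp5 window held 10, reached by 37.8%, and the median window held 6. Both members that rose therefore lay at different places in the range of CG content. Windows were found for 7 of the 10 genes, and those of Kmt2a, Setd1a and Wdr5 held 29, 25 and 12 CG dinucleotides. Dpy30 has 4 annotated starts, whose windows held 1 to 34.

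The 6 arrays were scaled by the authors to the same trimmed mean of 150.001. Between 38.1% and 38.2% of probe sets on the Pcl2 shRNA arrays and between 38.8% and 42.8% on the mismatch control arrays lay at or below a signal of 20.3, the highest signal of 27 bacterial control probe sets without a spike, which served as the background level. Mismatch control replicate 2 had a median signal of 28.5, against 33.2 to 33.9 on the other arrays. The ratio of 3' to 5' control probe sets of Tfrc was 2.91 to 3.26 on Pcl2 shRNA arrays and 3.09 to 4.73 on mismatch control arrays. That of Actb was 1.18 to 1.33 and 1.14 to 1.22, and that of Gapdh 0.80 to 0.82 and 0.81 to 0.82. The part of RNA quality in the results was not tested. Array number limits the precision. Mtf2 averaged 1028 ± 149.6 in Pcl2 shRNA cells and 1723 ± 220.0 in mismatch control cells (SD, n = 3 each), and its log2 fold change of -0.74 (adjusted p = 0.0157) left 59.7% of the control level. Mtf2 did not pass without Pcl2 shRNA replicate 3 (adjusted p = 0.0574) or mismatch control replicate 1 (0.0519). In the latter fit another Mtf2 probe set was the brightest and stood for the gene. The embryonic stem cell label was borne by its markers, since 10 of 10, among them Pou5f1, Nanog and Sox2, were above background on every array. Their summed signal was 38947 to 49113 in Pcl2 shRNA cells and 23706 to 29058 in mismatch control cells. Of the 10, 5 passed as higher in Pcl2 shRNA cells, Sox2, Zfp42, Esrrb, Klf4 and Tdgf1, and none as lower. Pou5f1 and Nanog did not pass (limma adjusted p = 0.334 and 0.0888). Trophectoderm markers summed to 1049 to 1448 in Pcl2 shRNA cells and to 4881 to 9264 in mismatch control cells, and their keratins Krt8 and Krt18 made up most of the control sum. Of these 7 markers 3 passed as lower in Pcl2 shRNA cells, Krt8, Krt18 and Cdx2, and none as higher. Tfap2c had the higher mean in Pcl2 shRNA cells without passing (813 against 566, log2 0.51, limma adjusted p = 0.108). It made up most of the Pcl2 shRNA sum. Of 10 fibroblast markers 3 (Col1a2, Thy1 and Fbln2) were above background on every array and 2 (Lum and Dcn) on none, and Twist2 passed as lower in Pcl2 shRNA cells (log2 -1.79, adjusted p = 0.0122). The 10 summed to 341 to 755 in Pcl2 shRNA cells and to 465 to 1226 in mismatch control cells. Of 8 primitive endoderm markers 5 were above background on every array. Lama1 passed as higher in Pcl2 shRNA cells (log2 0.96, limma adjusted p = 0.00731) and Dab2 as lower (log2 -1.79, limma adjusted p = 0.00106). The 8 summed to 362 to 422 in Pcl2 shRNA cells and to 393 to 508 in mismatch control cells. Of 4 blood markers Cd74 was above background on every array and Ptprc on none, and none passed. The part of these markers in the results that follow was not tested, and in bulk RNA fewer cells of a type and less RNA per cell cannot be told apart.

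Of the 10 genes, 2 rose in Pcl2 shRNA cells, Kmt2c and Rbbp5, none fell and 8 did not pass the test. The test was limma's moderated linear model on log2(signal + 7) with the brightest probe set of each gene, at an adjusted p under 0.05 over all 13095 genes tested. By the same rule 4.46% of all genes rose, 8.16% fell and 12.6% changed in either direction. All 10 members were bright enough to be tested. The log2 fold change was above 0 for 8 of them, against 52.4% of all genes, and the median over the 10 was 0.36, against 0.024 over all genes. The 4 core subunits had a median of 0.48 and the 6 methyltransferases one of 0.06. In 4 genes, Kmt2c, Rbbp5, Wdr5 and Dpy30, every Pcl2 shRNA array lay above every mismatch control array, as in 14.5% of all genes, and in none did every one lie below, as in 16.7% of all genes.

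**Figure D1:**
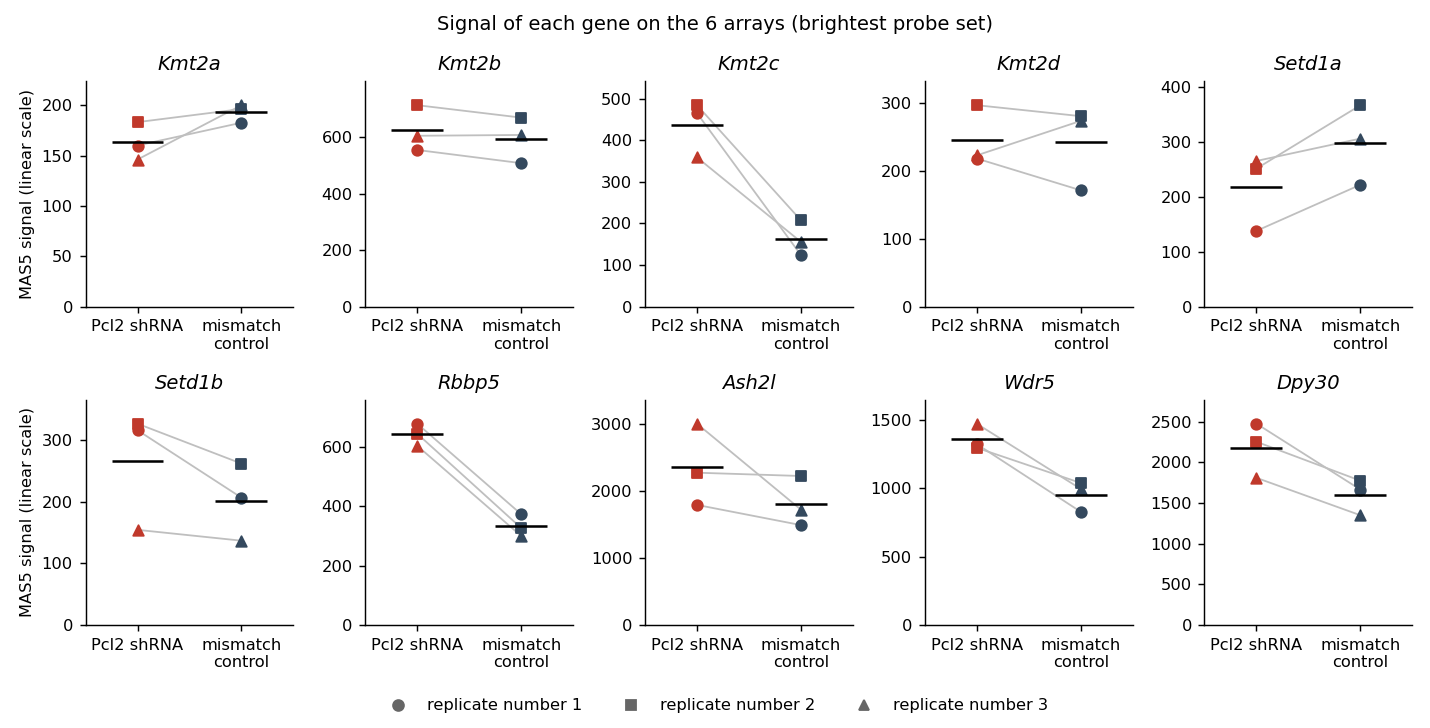
MAS5 signal on a linear axis from 0 for the brightest probe set of each of the 10 genes, with Pcl2 shRNA arrays (red) left of mismatch control arrays (dark blue), 1 marker shape per replicate number, grey lines joining arrays of the same number and black bars at the means. The groups are apart in Kmt2c, Rbbp5, Wdr5 and Dpy30 and overlap in the other 6 genes.

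Of the methyltransferases, Kmt2c rose and the other 5 did not pass. Kmt2c, the enhancer methyltransferase also called Mll3, had signals of 465, 484 and 359 in Pcl2 shRNA cells, against 124, 207 and 155 in mismatch control cells. The lowest Pcl2 shRNA array was thus well above the highest control array. The log2 fold change was 1.41 (SE 0.22, 95% interval 0.93 to 1.89, limma adjusted p = 0.00239), and only 0.84% of all genes had a larger one. A fold of 2.69 between the group means came with it, and the exact two-sided permutation p was 0.1, which is the lowest value possible with 3 arrays a group.

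The other 3 probe sets of Kmt2c gave the same direction. The second had 379, 438 and 332 in Pcl2 shRNA cells and 105, 204 and 119.7 in mismatch control cells (log2 1.43). The third had 189, 219.5 and 149 in Pcl2 shRNA cells and 63.4, 84.5 and 71.1 in mismatch control cells (log2 1.26). Both passed a fit with 1 row per probe set over 23186 probe sets, at limma adjusted p = 0.00572 and 0.00475. The fourth was dim, with 50.8, 63.8 and 40.7 in Pcl2 shRNA cells against 23.2, 38.6 and 34.7 in mismatch control cells, and it did not pass (log2 0.59, adjusted p = 0.192), although its groups did not overlap either.

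Kmt2d, which forms the matching enhancer complex, had 218, 296 and 222 in Pcl2 shRNA cells, against 171, 280.0 and 273 in mismatch control cells. The groups overlapped, with a log2 fold change of 0.04 (SE 0.23, 95% interval -0.46 to 0.54, adjusted p = 0.932). Its other probe set was dim, at 42.8 ± 6.88 in Pcl2 shRNA cells and 46.4 ± 8.74 in mismatch control cells (SD, n = 3 each; log2 -0.10). The change of Kmt2c exceeded that of Kmt2d by 1.37 on the log2 scale, and the difference between the log2 values of both genes was higher on each Pcl2 shRNA array than on any mismatch control array. The exact permutation p of that difference was 0.1, or 0.15 after Benjamini-Hochberg adjustment over the 3 pairs of relatives compared, a design in which no p can pass 0.05.

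Kmt2a, the founding mammalian relative of fly trithorax, had 160.1, 183 and 146 in Pcl2 shRNA cells, against 183, 196 and 200.2 in mismatch control cells. Its log2 fold change of -0.24 (SE 0.17, 95% interval -0.62 to 0.15, adjusted p = 0.438) did not pass, and its other probe set gave -0.26. Kmt2b, needed for H3K4 methylation at many developmental promoters of embryonic stem cells, had 555, 714 and 605 in Pcl2 shRNA cells and 508, 669.8 and 608 in mismatch control cells. Those values overlapped almost fully (log2 0.07, SE 0.17, 95% interval -0.31 to 0.45, adjusted p = 0.845). The change of Kmt2b exceeded that of Kmt2a by 0.31 on the log2 scale (exact permutation p = 0.1, adjusted 0.15).

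Setd1a and Setd1b, the catalytic subunits related to yeast Set1, varied more between samples. Setd1a had 138, 251 and 265 in Pcl2 shRNA cells, against 222, 366 and 306 in mismatch control cells (log2 -0.46, SE 0.27, adjusted p = 0.322). Within each replicate number the Pcl2 shRNA array was the lower, by 0.66, 0.53 and 0.20 on the log2 scale. With the replicate number as a block the gene passed (limma adjusted p = 0.0422). In the fit over probe sets with the same block, this probe set did not pass (limma adjusted p = 0.0546). Without Pcl2 shRNA replicate 1 the log2 fold change was -0.17, and without mismatch control replicate 2 it was -0.30. Its other probe set lay near background, at 29.0, 36.0 and 24.6 in Pcl2 shRNA cells and 15.1, 25.1 and 21.3 in mismatch control cells, and gave log2 0.43, so that the probe sets disagreed in sign. With the mean of both probe sets the gene had a log2 fold change of -0.018 (adjusted p = 0.971).

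Setd1b had 316, 327 and 154 in Pcl2 shRNA cells, against 207, 262 and 137 in mismatch control cells. Replicate number 3 was the lowest of its group in both groups, and the second probe set repeated this with 193, 199 and 96.0 in Pcl2 shRNA cells and 112, 147 and 77.0 in mismatch control cells. The log2 fold changes of 0.36 (SE 0.31, 95% interval -0.34 to 1.05, adjusted p = 0.532) and 0.49 did not pass, with or without the block. Leaving out 1 array moved the first between 0.11 (without mismatch control replicate 3) and 0.70 (without Pcl2 shRNA replicate 3). The change of Setd1b exceeded that of Setd1a by 0.82 on the log2 scale, but the groups overlapped (exact permutation p = 0.3, adjusted 0.3).

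**Figure D2:**
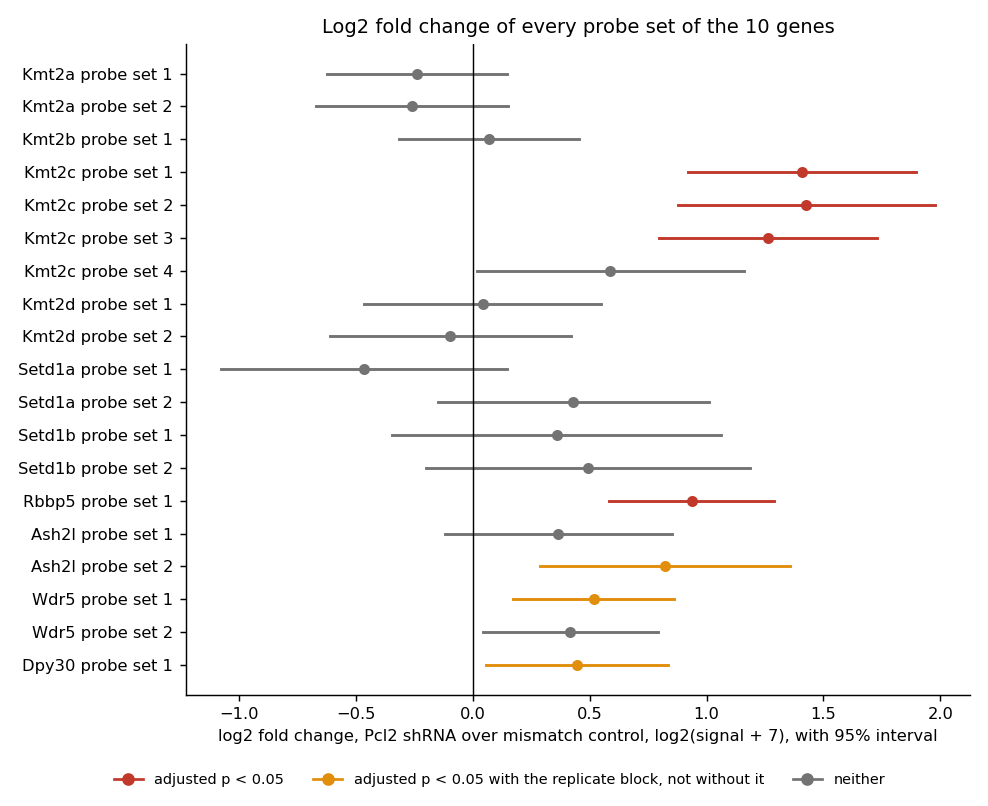
Log2 fold change of Pcl2 shRNA over mismatch control (x axis, on the log2(signal + 7) scale) for all 19 probe sets of the 10 genes, brightest first within a gene, with 95% intervals from the fit over probe sets. All probe sets of the core subunits lie above 0, 3 of the 4 Kmt2c probe sets pass the test, and the 2 Setd1a probe sets lie on opposite sides of 0.

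Among the core subunits Rbbp5 rose, and Wdr5, Dpy30 and Ash2l had higher means without passing. Rbbp5, which with Ash2l stimulates the SET domain, had 678, 644 and 603 in Pcl2 shRNA cells, against 373, 326 and 299.5 in mismatch control cells. The groups were far apart and each was tight. The log2 fold change was 0.94 (SE 0.16, 95% interval 0.59 to 1.28, limma adjusted p = 0.00363), with a fold of 1.93 between the means, and 2.90% of all genes had a larger one. Only 1 probe set measured this gene.

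Wdr5, the propeller protein that grips the methyltransferase, had 1323, 1296 and 1472 in Pcl2 shRNA cells, against 828, 1039 and 995 in mismatch control cells. Every Pcl2 shRNA array was above every control array, with a log2 fold change of 0.52 (SE 0.15, 95% interval 0.18 to 0.85) and an adjusted p of 0.0506 from limma, just short of the threshold. It passed with the replicate block (adjusted p = 0.0144). The second probe set had 715, 705 and 761 in Pcl2 shRNA cells against 556, 634 and 453 in mismatch control cells (log2 0.42), also without overlap. In the fit over probe sets it did not pass (limma adjusted p = 0.159, and 0.0752 with the block).

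Dpy30, the small subunit that docks on Ash2l, had 2474, 2252 and 1809 in Pcl2 shRNA cells, against 1664, 1773 and 1349 in mismatch control cells. The lowest Pcl2 shRNA array and the highest control array nearly touched. The log2 fold change of 0.45 (SE 0.17, 95% interval 0.06 to 0.83) had an adjusted p of 0.127 from limma, and of 0.0238 with the replicate block. Ash2l had 1796, 2278 and 3011 in Pcl2 shRNA cells, against 1494, 2229 and 1725 in mismatch control cells (log2 0.37, SE 0.22, adjusted p = 0.326), and without Pcl2 shRNA replicate 3, the highest value, the log2 fold change was 0.18. Its second probe set had 134, 160.0 and 90.1 in Pcl2 shRNA cells and 78.4, 66.3 and 58.7 in mismatch control cells, without overlap (log2 0.82, adjusted p = 0.0573, and 0.0149 with the block). The mean of the 2 Ash2l probe sets passed (log2 0.59, adjusted p = 0.0296).

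Over probe sets, 4 of the 19 rose, 3 of Kmt2c and 1 of Rbbp5, against 3.61% of all probe sets tested (10.4% changed in either direction). Groups did not overlap and were higher in 9 of the 19, against 14.3% of all probe sets, and lower in none, against 15.2%. Of those 9, 5 belonged to the 6 probe sets of the core subunits and 4 were those of Kmt2c. Probe sets of 1 gene share its RNA and are not independent.

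Samples carry a number in both groups, and arrays that share one deviated together, so the number was also fitted as a block. It raised the share of all genes that rose to 9.97% and of those that fell to 13.8%. With it 4 of the 10 genes rose, Kmt2c, Rbbp5, Wdr5 and Dpy30, and Setd1a fell. Among probe sets 7 of 19 then rose, against 8.20% of all probe sets, and neither Setd1a probe set passed. Kmt2c and Rbbp5 passed in each fit without 1 array, with adjusted p-values up to 0.0163 and 0.0239, and Wdr5 passed too without mismatch control replicate 2 (0.0477).

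**Figure D3:**
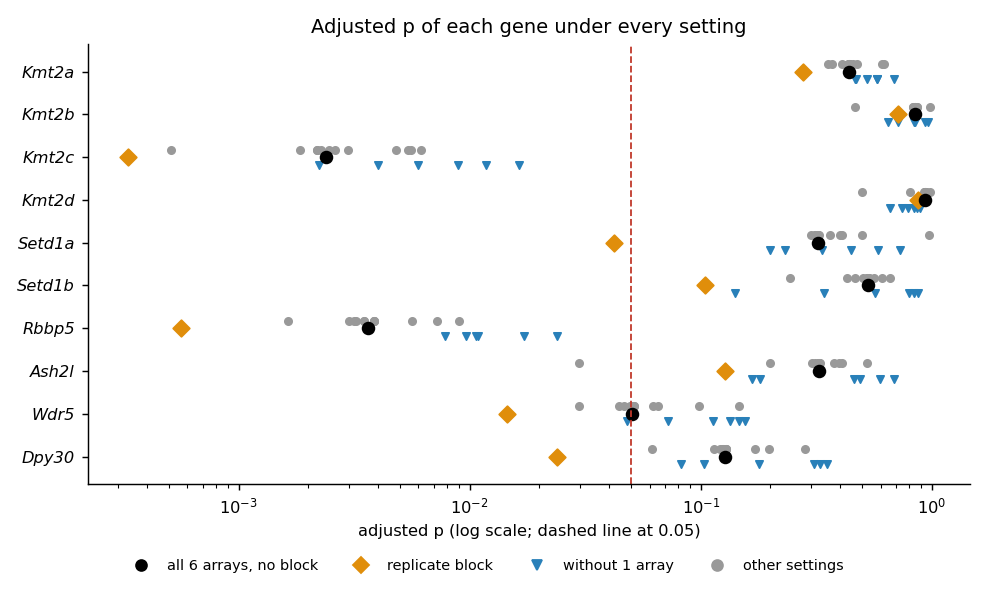
Adjusted p (log axis, dashed line at 0.05) of each of the 10 genes with all 6 arrays and no block (black), with the replicate block (orange), without 1 array (blue) and under the other settings (grey). Kmt2c and Rbbp5 stay left of the line in every setting. Wdr5 lies on it at 0.0506 with all 6 arrays and no block, and left of it in 6 of the 19 alternatives. Setd1a and Dpy30 cross it only with the block, and Ash2l only with the mean of probe sets.

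**Figure D4:**
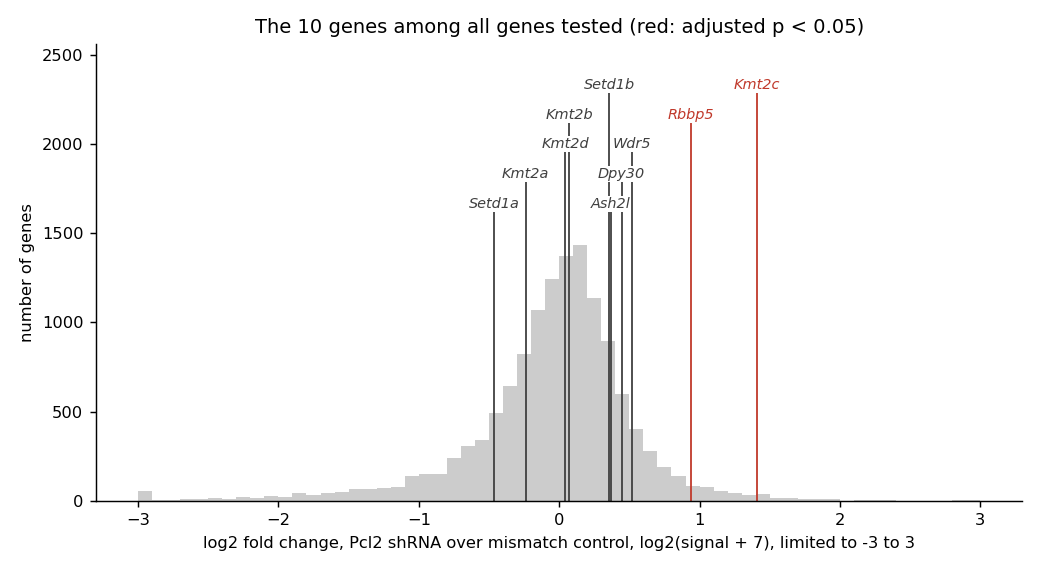
Histogram of the log2 fold changes of all 13095 genes tested (x axis, log2(signal + 7) scale, values beyond -3 or 3 placed at the ends; y axis, number of genes), with a line for each of the 10 genes, whose heights only separate the names. Kmt2c at 1.41 and Rbbp5 at 0.94 lie in the upper tail and the other 8 genes between -0.46 and 0.52.

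The genes whose log2 values followed Kmt2c most closely over the 6 arrays were Prune1 (Pearson r 0.998), Slf1 (0.997) and Usp9x (0.996). For Rbbp5 they were Mrps9 (0.997), Wdr76 (0.996) and the pluripotency factor Klf4 (0.996). They are the highest of all genes tested over 6 arrays that fall in 2 groups, and are given as a description. Among them Klf4 had the largest log2 fold change, 1.78.

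Subunits that join only some of the complexes were examined next. Of 13 COMPASS accessory subunits tested none rose or fell, and with the replicate block 3 rose and 1 fell, against 9.97% and 13.8% of all genes. The median log2 fold change of the 13 was 0.05. The member that fell with the block was Men1, menin, which tethers KMT2A and KMT2B to chromatin. It had 199, 235 and 163 in Pcl2 shRNA cells, against 349, 318 and 265 in mismatch control cells, without overlap (log2 -0.63, SE 0.19, adjusted p = 0.0581, and 0.00939 with the block). Its other 2 probe sets gave -0.78 and -0.62, with overlapping groups, and did not pass the fit over probe sets (limma adjusted p = 0.103 and 0.356).

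Wdr82, the subunit that links the SETD1 complexes to RNA polymerase II, had 805, 728 and 635 in Pcl2 shRNA cells and 639, 449 and 338 in mismatch control cells, which overlapped by a little (log2 0.64, adjusted p = 0.0941, and 0.00952 with the block). Hcfc2, a relative of the host cell factor Hcfc1, averaged 115 ± 8.42 in Pcl2 shRNA cells and 72.9 ± 24.3 in mismatch control cells (SD, n = 3 each; log2 0.66, adjusted p = 0.126, and 0.0375 with the block). Ogt, the transferase of O-linked N-acetylglucosamine, averaged 942 ± 102 in Pcl2 shRNA cells and 734 ± 101 in mismatch control cells (log2 0.36, adjusted p = 0.199, and 0.0482 with the block).

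Of 8 other methyltransferases tested 1 fell, against 8.16% of all genes, none rose and 7 did not pass, with a median of -0.14. The 1 was Setd7, which monomethylates H3K4 in vitro and many proteins other than histones. It dropped to 61.4, 69.2 and 80.7 in Pcl2 shRNA cells, against 443, 454 and 581 in mismatch control cells, and the gap between the groups was many times their spread. Its log2 fold change was -2.69 (SE 0.19, limma adjusted p = 3.42e-05), and a second probe set gave -1.46. Smyd2 averaged 282 ± 59.8 in Pcl2 shRNA cells and 386 ± 59.4 in mismatch control cells (log2 -0.45, adjusted p = 0.178) and passed with the block (0.0333).

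Of 8 genes of H3K4 demethylases and their partners 2 rose, against 4.46% of all genes, none fell and 6 did not pass, with a median of 0.18. Kdm5b, which removes the trimethyl mark, had 3143, 3210.4 and 3088 in Pcl2 shRNA cells, against 1365, 1941 and 1409 in mismatch control cells. The log2 fold change was 1.02 (SE 0.17, adjusted p = 0.00316), and its other 3 probe sets gave 0.57 or more. Rcor2, a corepressor that binds the demethylase KDM1A, had 1032, 1071 and 1133 in Pcl2 shRNA cells, against 599, 844 and 659 in mismatch control cells (log2 0.63, SE 0.17, adjusted p = 0.0318). The Rcor2 call was lost in the fits without any 1 array except mismatch control replicate 2, at adjusted p of up to 0.113 without Pcl2 shRNA replicate 2. Kdm1a itself averaged 2961 ± 239.9 in Pcl2 shRNA cells and 2233 ± 206 in mismatch control cells (log2 0.41, adjusted p = 0.0965, and 0.0445 with the block).

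**Figure D5:**
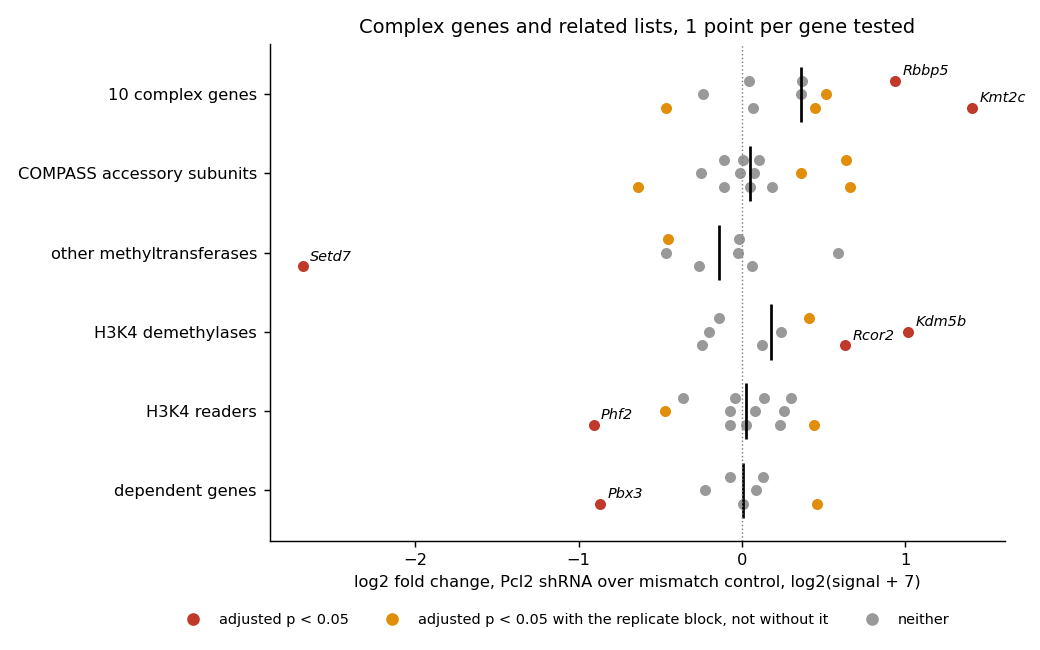
Log2 fold change of Pcl2 shRNA over mismatch control (x axis, log2(signal + 7) scale) of the 10 genes and of 5 lists of related genes, 1 point per gene tested, with a black bar at each median. Red points passed the test and are named, and orange points passed it with the replicate block and not without it, all 6 arrays included. Setd7 at -2.69 and Kmt2c at 1.41 are the ends of the range.

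Of 13 readers of H3K4 methylation 1 fell, against 8.16% of all genes, and none rose, with a median of 0.03. It was Phf2, whose zinc finger binds the trimethyl mark, with 50.2, 60.7 and 55.4 in Pcl2 shRNA cells against 97.9, 101 and 134 in mismatch control cells (log2 -0.91, SE 0.21, adjusted p = 0.0176). A second Phf2 probe set gave 0.12 and 2 more were at background, and the call was lost with the mean of probe sets (log2 -0.39, adjusted p = 0.214) and without Pcl2 shRNA replicate 1 (0.0614), Pcl2 shRNA replicate 2 (0.0518) or mismatch control replicate 3 (0.0611). Ing3 averaged 319 ± 32.8 in Pcl2 shRNA cells and 233 ± 16.5 in mismatch control cells (log2 0.44, adjusted p = 0.114, and 0.0364 with the block). Phf13 averaged 326 ± 53.7 in Pcl2 shRNA cells and 454 ± 80.8 in mismatch control cells (log2 -0.47, adjusted p = 0.157) and passed with the block.

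Of 7 tested genes known from other cells to depend on KMT2A, KMT2B or menin, 1 fell, against 8.16% of all genes, and none rose, with a median of 0.0042. Pbx3, a homeodomain cofactor of Hox proteins, had 186, 164 and 142 in Pcl2 shRNA cells, against 282, 312 and 317 in mismatch control cells (log2 -0.87, SE 0.17, adjusted p = 0.0087), and its other probe set gave -0.85. The cell cycle inhibitor Cdkn1b averaged 418 ± 69.0 in Pcl2 shRNA cells and 305 ± 68.9 in mismatch control cells (log2 0.46, adjusted p = 0.194, and 0.0253 with the block). Hoxa7, Hoxa10 and Hoxc8 were too dim to be tested. Hoxa5 and Hoxa9 were tested, but the other probe set of each lay below background on every array. Those dim probe sets averaged 10.2 (Hoxa5) and 6.37 (Hoxa9) in Pcl2 shRNA cells and 12.4 and 5.53 in mismatch control cells. The Hoxa5 probe set tested was of the cross-hybridising kind. Meis1, whose log2 fold change was the median, lay near background, at 25.4 in Pcl2 shRNA cells and 26.7 in mismatch control cells. Across the 5 lists 5 of the 49 genes tested changed, 2 higher and 3 lower, against 12.6% of all genes. With the block 14 changed, 8 higher and 6 lower, against 23.8% of all genes. Both shares were near those of all genes.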

How the data were processed

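RNA of 3 Pcl2 shRNA and 3 mismatch control samples was hybridised to Affymetrix mouse arrays. For each probe set the authors deposited 1 linear intensity, the MAS5 signal, and per the submitters' processing notes it was made with GCOS 1.4. No genome build is given in the sources used here. The table held 45101 probe sets, of which 34945 named 1 gene, and symbols were updated through the gene table of GRCm38.p6.

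Signals were transformed to log2(signal + 7). Tests covered probe sets with a single gene name and a mean log2 value at or above the 40th percentile (signal 20.2), and the brightest stood for its gene. Fold changes on this scale understate those of dim genes. Differences (Pcl2 shRNA minus mismatch control) went through limma (version 3.58.1, R 4.3.3, lmFit and eBayes with trend), two-sided, with Benjamini-Hochberg adjustment over all rows, and the procedure was tested on simulated data. Single values were tested by exact permutation over 20 relabellings. Errors are SD with n = 3 arrays per group, and SE from limma.

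The replicate numbers come from the sample titles, which name no culture or day that a number would share. Deviations from the group means correlated at 0.25 to 0.40 between same-numbered arrays and at -0.38 to -0.0012 between others. Deviations within a group sum to 0, so positive values for some pairs of arrays require negative ones for others, and the contrast is partly fixed in advance. On the data alone, the number was fitted as a block in an alternative fit. The choice of the block and the calls made with it rest on the same arrays. The main fit and the exact permutations left it out. Arrays of 1 group correlated at 0.961 to 0.977, and arrays of different groups at 0.907 to 0.943.

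The members, lists, tests and the rule for named genes were chosen with earlier results of these data known. The rule names every member, Mtf2, up to 4 genes per list with the smallest p past the threshold with or without the block (or the 2 brightest), and the 3 genes most like each member that passed. The genes named as cell type markers, the Hox genes and Meis1 stand outside it and were chosen after their values were seen. Ash1l and Magohb of the lists were not analysed here.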

Additional observations from a re-analysis of the deposited data

How the results depend on the processing

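Each value was recomputed under 19 alternatives, changing 1 choice and keeping the rest. These were the block, each array left out, array weights, the eBayes prior (robust, or with no trend), pseudocounts (1 or 21), the filter (none, or the 60th percentile), scaling (medians or quantiles), a floor at background, the mean of probe sets, and removal of cross-hybridising ones. Over the 10 genes this gave 190 values, of which 175 kept direction and side of the threshold, 9 passed newly, none was lost and 6 changed sign, all of them far from the threshold. The sign changes were those of Kmt2b without Pcl2 shRNA replicate 2 (-0.029) or mismatch control replicate 1 (-0.038), in a range of -0.038 to 0.16 without 1 array, and of Kmt2d with median centring (-0.017), the mean of probe sets (-0.027), without Pcl2 shRNA replicate 2 (-0.097) or mismatch control replicate 1 (-0.18), in a range of -0.18 to 0.16 without 1 array. The replicate block raised the genes called to 3113, the member genes to 5, the member probe sets to 7 and the pathway genes to 14, from 1652, 2, 4 and 5. It changed no other call of the members than those of Wdr5, Dpy30 and Setd1a. Wdr5 also passed under 5 further alternatives: pseudocount 21, the 60th percentile filter, array weights, the floor, and without mismatch control replicate 2, with adjusted p over all 19 between 0.0144 and 0.155. Without 1 array the genes called ranged from 979 (without Pcl2 shRNA replicate 2) to 1598, the member genes from 2 to 3, the member probe sets from 4 to 5 and the pathway genes from 3 (without Pcl2 shRNA replicate 1 or 2) to 5. The log2 fold change of Kmt2c ranged from 1.17 to 1.59 and that of Rbbp5 from 0.86 to 1.02 over the 19. Rcor2 was also lost with median centring (adjusted p = 0.101) and without the eBayes trend (0.0647). No cause of these changes was tested. With 3 arrays a group, a change whose interval holds 0 could not be told from 0.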
